A study of Mus musculus with 4 samples.

Results

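Serotonin synthesis and enterochromaffin genes were followed in sorted intestinal epithelial cells of Bmi1-GFP mice. The set has 9 members among the 31054 features of each count matrix, found by symbol: Tph1, Ddc, Slc18a1, Maoa, Maob, Lmx1a, Fev, Tac1 and Trpa1. All 9 symbols were found in each matrix. Members were described in every library and, within libraries, in cells with and without Tph1 UMIs (unique molecular identifiers, the counted tags of single RNA molecules). Barcodes entered as kept cells when they had 500 or more genes and no more than 20% mitochondrial UMIs.

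Enterochromaffin cells are the enteroendocrine cells of the gut that make serotonin, an amine that drives peristalsis, secretion and signalling to enteric nerves. Tph1, a tryptophan hydroxylase, carries out the first and rate-limiting step, which needs tetrahydrobiopterin. Ddc, aromatic amino acid decarboxylase, makes serotonin from the product, and Slc18a1, the vesicular monoamine transporter VMAT1, loads it into granules. Maoa and Maob are monoamine oxidases, which degrade serotonin and other amines at the outer mitochondrial membrane. Lmx1a, a LIM homeodomain factor, and Fev, an ETS factor, are transcription factors known from serotonergic and enteroendocrine cells. Tac1 encodes the precursor of substance P and neurokinin A, peptides often stored beside serotonin. Trpa1 is a cation channel opened by electrophilic irritants, and it serves as a chemical sensor of enterochromaffin cells.

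There were 4 groups of 1 library each: embryos of day 12.5 (E12.5), embryos of day 17.5 (E17.5), adult mice and irradiated adult mice. All carried the genotype Bmi1-GFP, in which the Bmi1 locus drives a GFP reporter, and the study sorted Bmi1-expressing cells of the intestinal epithelium by flow cytometry. The labels give no radiation dose, interval after irradiation, adult age, number of pooled mice or sorting threshold. The reporter transcript eGFP was at 22.9, 1.10, 1.72 and 12.5 CPM (UMIs of a gene scaled to a total of 1000000) in these libraries, taken in the order just named. Clusters of the kept E17.5 cells named by fixed markers also held 552 pancreatic acinar-like, 96 mesenchymal-like, 46 smooth muscle-like and 22 mesothelial-like cells, so that library was not purely intestinal epithelium. No cluster of the E12.5 library met the rule for any name.

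The genes lie at these GRCm38 positions in GENCODE: Tph1 at chr7:46644641-46672537, Ddc at chr11:11814101-11898144, Slc18a1 at chr8:69037711-69089235, Fev at chr1:74881509-74885419 and Trpa1 at chr1:14872648-14918862, all on the minus strand. Lmx1a lies at chr1:167689237-167848741 and Tac1 at chr6:7554879-7565834 on the plus strand. Maoa (chrX:16619698-16687818, plus strand) and Maob (chrX:16709282-16817366, minus strand) are neighbours.

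Gene starts are shown first, because Tph1, Lmx1a and Tac1 were high in the same cells in the results that follow, and Lmx1a is a homeodomain factor, a class with known core letters. Promoter windows from RefSeq (GRCm38.p6) were found for 6 of the 9 members, with a pair of start sites each for Tph1 and Ddc. The 250 bases before each start were searched on both strands for the homeodomain core TAATTA, for the letters CCGGAA bound by ETS factors, and for 3 E-boxes, namely CAGCTG, further CATCTG, and lastly CATATG. Windows are given 5′ to 3′ on the gene's strand, with motif matches in capitals: Tph1 before its downstream start (chr7:46667378-46667627, minus strand), Fev (chr1:74885409-74885658, minus strand), Tac1 (chr6:7554811-7555060, plus strand) and, for contrast, Lmx1a (chr1:167689308-167689557, plus strand).
Tph1: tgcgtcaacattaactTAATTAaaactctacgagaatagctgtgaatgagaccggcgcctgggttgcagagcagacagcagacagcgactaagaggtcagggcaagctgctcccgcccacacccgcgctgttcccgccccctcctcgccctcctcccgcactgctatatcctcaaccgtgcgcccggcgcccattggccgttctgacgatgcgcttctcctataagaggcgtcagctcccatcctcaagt
Fev: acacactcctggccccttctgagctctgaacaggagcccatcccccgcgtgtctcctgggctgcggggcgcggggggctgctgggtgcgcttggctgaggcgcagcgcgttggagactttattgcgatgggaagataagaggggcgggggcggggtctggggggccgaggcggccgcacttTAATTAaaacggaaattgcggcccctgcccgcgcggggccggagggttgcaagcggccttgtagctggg
Tac1: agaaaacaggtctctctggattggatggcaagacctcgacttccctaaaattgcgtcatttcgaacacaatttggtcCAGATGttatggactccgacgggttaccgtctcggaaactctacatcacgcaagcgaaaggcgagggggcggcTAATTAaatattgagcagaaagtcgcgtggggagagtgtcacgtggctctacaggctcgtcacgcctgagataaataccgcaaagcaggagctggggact
Lmx1a: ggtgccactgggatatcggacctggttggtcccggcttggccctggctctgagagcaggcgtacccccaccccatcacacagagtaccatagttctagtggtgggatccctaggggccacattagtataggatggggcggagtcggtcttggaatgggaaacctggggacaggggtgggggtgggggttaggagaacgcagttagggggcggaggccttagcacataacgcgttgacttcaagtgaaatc
TAATTA stood 234 bases before the downstream Tph1 start, 69 bases before the Fev start and 100 bases before the Tac1 start. It was found in 4.84% of 32851 promoter windows of the same length, and the other 3 motifs in 12% (the ETS letters), 13.0% (CAGCTG) and 3.46% (CATATG). The Tac1 window also held CAGATG, the reverse complement of CATCTG, 173 bases before the start, and CATCTG in either orientation was found in 14.4% of windows. The windows of Lmx1a, Maoa, Ddc (both starts) and the upstream Tph1 start held none of the motifs, and the other 3 motifs occurred in none of the 8 windows. The distances are to RefSeq starts, which can differ from the gene bounds in GENCODE given above. The windows of Lmx1a and of the downstream Tph1 start lay wholly inside those bounds, as did the TAATTA and CAGATG matches of Tac1. A match describes letters and shows no binding.

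The filter kept 4226 of 5216 barcodes at E12.5, 4602 of 5232 at E17.5, 3788 of 6287 in the adult and 3184 of 5996 in the irradiated adult. Kept cells held from 31908663 UMIs (adult) to 89064972 UMIs (E12.5), and the median per cell ranged from 3699.5 (adult) to 18637.5 (E12.5). Libraries shared between 6 and 12 barcodes per pair. Levels are CPM of UMIs summed over cells, with exact 95% Poisson intervals for the counting error alone. Since each group is a single library, differences between groups have no replicate check and no test, and ratios describe these libraries.

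Tph1 was nearly absent at E12.5 and abundant in both adult libraries. The E12.5 level was 0.022 CPM (0.0027 to 0.081, 2 UMIs) and the E17.5 level 73.4 CPM (71.5 to 75.3). Adult cells had 763 CPM (753 to 772) and irradiated adult cells 889 CPM (880.2 to 898). The order was E12.5, E17.5, adult, irradiated adult, with intervals that did not overlap, and values below are given in this order unless a library is named. E17.5 exceeded E12.5 by 3268-fold (904 to 26990, resting on 2 UMIs), the adult exceeded E17.5 by 10.4-fold (10.1 to 10.7), and the irradiated adult exceeded the adult by 1.17-fold (1.15 to 1.18). The last of these turned with the cell filter: at 1000 genes and 10% mitochondrial UMIs the adult had 1107 CPM and the irradiated adult 926 CPM. Among cells with a Tph1 UMI the irradiated adult was also the lower, at 1302 against 1957 CPM (ratio 0.665, 0.655 to 0.676). Cells with a Tph1 UMI numbered 2, 609, 1310 and 1942 in the same order, or 0.047%, 13.2%, 34.6% and 61.0% of kept cells. Cells of non-endocrine classes were among them, as given below. Each cell was also thinned to 2000 UMIs, which left out between 190 and 686 shallower cells per library. The shares were then 0, 9.56%, 28.2% and 48.3%. The 0 is of 3655 cells, for which a floor of 3 cells is 0.0821%. The neuronal paralog Tph2, which makes serotonin in the brain and enteric neurons, had between 0 and 2 UMIs per library.

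**Figure D1:**
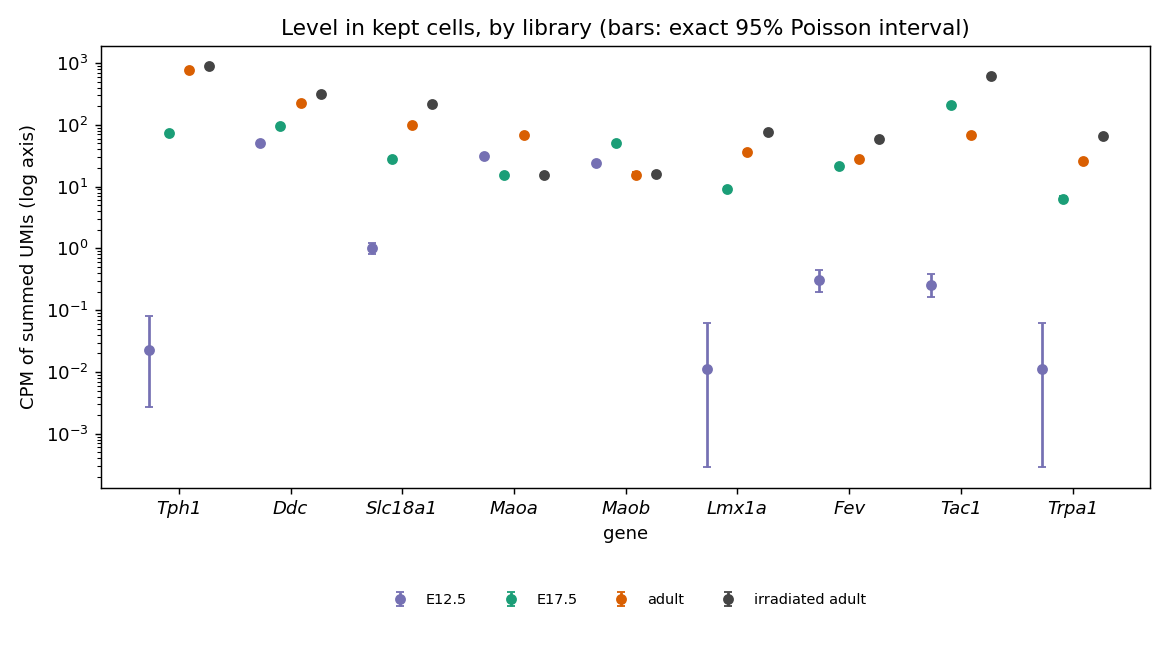
Level of each of the 9 genes (CPM, log axis) in the kept cells of the 4 libraries, with exact 95% Poisson intervals as bars. Tph1, Lmx1a and Trpa1 sit at the bottom of the axis at E12.5 with 2, 1 and 1 UMIs, whereas Ddc, Maoa and Maob lie above 20 CPM there.

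The E12.5 library held the decarboxylase and both oxidases without the hydroxylase. Ddc was at 51.7 (50.2 to 53.2), 94.3, 228 and 311 CPM, and a Ddc UMI was present in 9.79% of thinned E12.5 cells. Slc18a1 was at 1.01, 28.1, 99.2 and 218 CPM. Both genes followed the order of the Tph1 levels, but the Ddc span from lowest to highest library was far narrower. Ddc overlaps an antisense gene, 1700042O10Rik, and Slc18a1 overlaps Gm15716 and Atp6v1b2 on the opposite strand.

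Both transcription factors were lowest at E12.5. Lmx1a was at 0.011 (1 UMI), 9.27, 37.0 and 77.0 CPM, and Fev at 0.30 (27 UMIs), 21.5, 27.7 and 58.4 CPM. Fev thus differed little between E17.5 and the adult, at 1.29-fold higher in the adult (1.18 to 1.40), and the mean of each cell's CPM turned this to -0.45 on the log2 scale.

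Tac1, unlike Tph1, was higher at E17.5 than in the adult. It was at 0.26, 212 (208 to 215), 69.1 (66.3 to 72.1) and 628 CPM (621 to 636). The irradiated adult was 9.09-fold above the adult (8.70 to 9.49), and E17.5 was 3.06-fold above it (2.93 to 3.20). Trpa1 was at 0.011 CPM (1 UMI), 6.41, 25.6 and 67.1 CPM, in the order of the libraries for Tph1.

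The 2 oxidases, neighbours on the X chromosome, had different patterns. Maoa was highest in the adult at 69.2 CPM, against 31.4 at E12.5 and 15.4 in both the E17.5 and the irradiated adult library, whose intervals overlapped. Maob was highest at E17.5 at 51.8 CPM, against 24.1 at E12.5 and 15.7 and 16.2 in the adult and irradiated libraries, a pair within counting error (ratio 1.03, 0.917 to 1.16). The adult was thus 4.50-fold above the irradiated adult for Maoa (4.12 to 4.92).

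Counted over the set, 7 of 9 members were more than 2-fold higher and 1 more than 2-fold lower at E17.5 than at E12.5. Among 17119 features with at least 10 UMIs in either library, 23.2% were that much higher and 23.3% that much lower. For the adult over E17.5 the counts were 6 higher and 2 lower, against 18.7% and 21.3% of 16611 features, and for the irradiated adult over the adult 5 higher and 1 lower, against 7.29% and 9.35% of 15266 features. The members' median log2 ratios were 6.15, 1.82 and 1.06, beside medians over all such features of -0.19, -0.09 and -0.04 (these with 0.5 UMIs added to each count). In these libraries a higher share of cells carrying a gene and more RNA per cell cannot be told apart from the summed level alone.

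The cells that held the members were then located in clusters, which were formed within each library without the 9 genes and named without them. Enteroendocrine-like cells numbered 1371, 2286 and 1882 in the E17.5, adult and irradiated libraries, and held 82.3%, 77.4% and 63.9% of the cells with a Tph1 UMI. In the irradiated adult a further 24.4% of such cells were in unnamed clusters, among them 1 of 240 cells that carried tuft and endocrine markers together (1596 CPM of Tph1). Cluster values are descriptions without a test.

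In each of the 3 later libraries 1 or more clusters combined high Tph1, Slc18a1, Lmx1a and Trpa1. At E17.5 this was a cluster of 311 cells led by Reg4 and Chga, with 2169 CPM of Tph1, 560 of Slc18a1, 296 of Lmx1a, 221 of Trpa1 and 5940 of Tac1. It held 70.2% of that library's Tph1 UMIs. In the adult a cluster of 270 cells with Cartpt had 5570 CPM of Tph1 but 188 of Tac1 and 110.5 of Trpa1, and a cluster of 66 cells led by Afp and Reg4 had 5696 CPM of Tph1, 488 of Tac1 and 591 of Trpa1. The irradiated adult held the same 2 kinds of cluster by leading genes: 556 cells with Cartpt (Tph1 3911, Tac1 604, Trpa1 147 CPM) and 114 cells led by Afp (Tph1 2684, Tac1 7381, Trpa1 658 CPM). Within each adult library the Afp cluster therefore had the higher Tac1 and Trpa1, with Lmx1a at 263 and 265 CPM in the adult pair and at 266 and 347 CPM in the irradiated adult pair.

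A second kind of cell held Tph1 with little Lmx1a or Trpa1. Nts and Cck, which encode neurotensin and cholecystokinin, were among the leading genes of each against clusters of other names. At E17.5 the cluster (389 cells) had 309 CPM of Tph1, 117 of Slc18a1, 9.74 of Lmx1a and 1.95 of Trpa1. In the adult it (300 cells) had 601 CPM of Tph1, 107 of Slc18a1, 5.30 of Lmx1a and 0.48 of Trpa1 (1 UMI). In the irradiated adult it (223 cells) had 712 CPM of Tph1, 151 of Slc18a1, 15.0 of Lmx1a and 7.35 of Trpa1. A Tph1 UMI was present in 46.3%, 58.3% and 90.1% of their cells.

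Other members peaked outside the cells rich in Tph1. Ddc was high in the clusters led by Gip, the incretin of K cells, at 655, 844 and 761 CPM in the 3 later libraries, where Tph1 was at 2.97, 18.4 and 105 CPM. Fev was spread over endocrine clusters and reached 196 CPM in an E17.5 cluster led by Sst, with 1 Tph1 UMI. Maoa was highest in the adult enterocyte-like cluster at 534 CPM, and between 3.12 and 18.6 CPM in the adult clusters rich in Tph1 and Lmx1a that were named. Maob was highest in 2 of the E17.5 enterocyte-like clusters, at 252 and 274 CPM.

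Low levels of the members were also measured in cells of other classes. Tuft-like cells had 31.2 CPM of Tph1 in the adult (1001 cells, 11.8% with a UMI, median depth 4122 UMIs) and 91.9 CPM in the irradiated adult (293 cells, 23.5%, 4446 UMIs). The enteroendocrine-like cells had 1675 CPM (44.4%, 3218 UMIs) and 1378 CPM (65.9%, 10107.5 UMIs). For Tac1 the tuft-like level was 2.30 CPM in the adult and 161 CPM in the irradiated adult, for Trpa1 0.84 and 15.3 CPM and for Lmx1a 1.26 and 7.66 CPM. In the irradiated adult 61.6% of the 99 Paneth-like cells, at a median of 97137 UMIs, had a Tac1 UMI. A Tph1 UMI was present in 59.6% of them, beside 61.0% of all kept cells of that library. The share was 61.1% in its enterocyte-like (median 49347.5 UMIs) and 44.2% in its goblet-like cells. Adult Paneth-like, enterocyte-like and crypt base columnar stem-like cells had 30.3%, 32.8% and 27.3% (medians 29404, 30844.5 and 42107 UMIs), beside 34.6% of all kept cells. At E17.5 the enterocyte-like share was 3.82%. The part of free RNA in these values and in the differences between libraries was not tested.

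**Figure D2:**
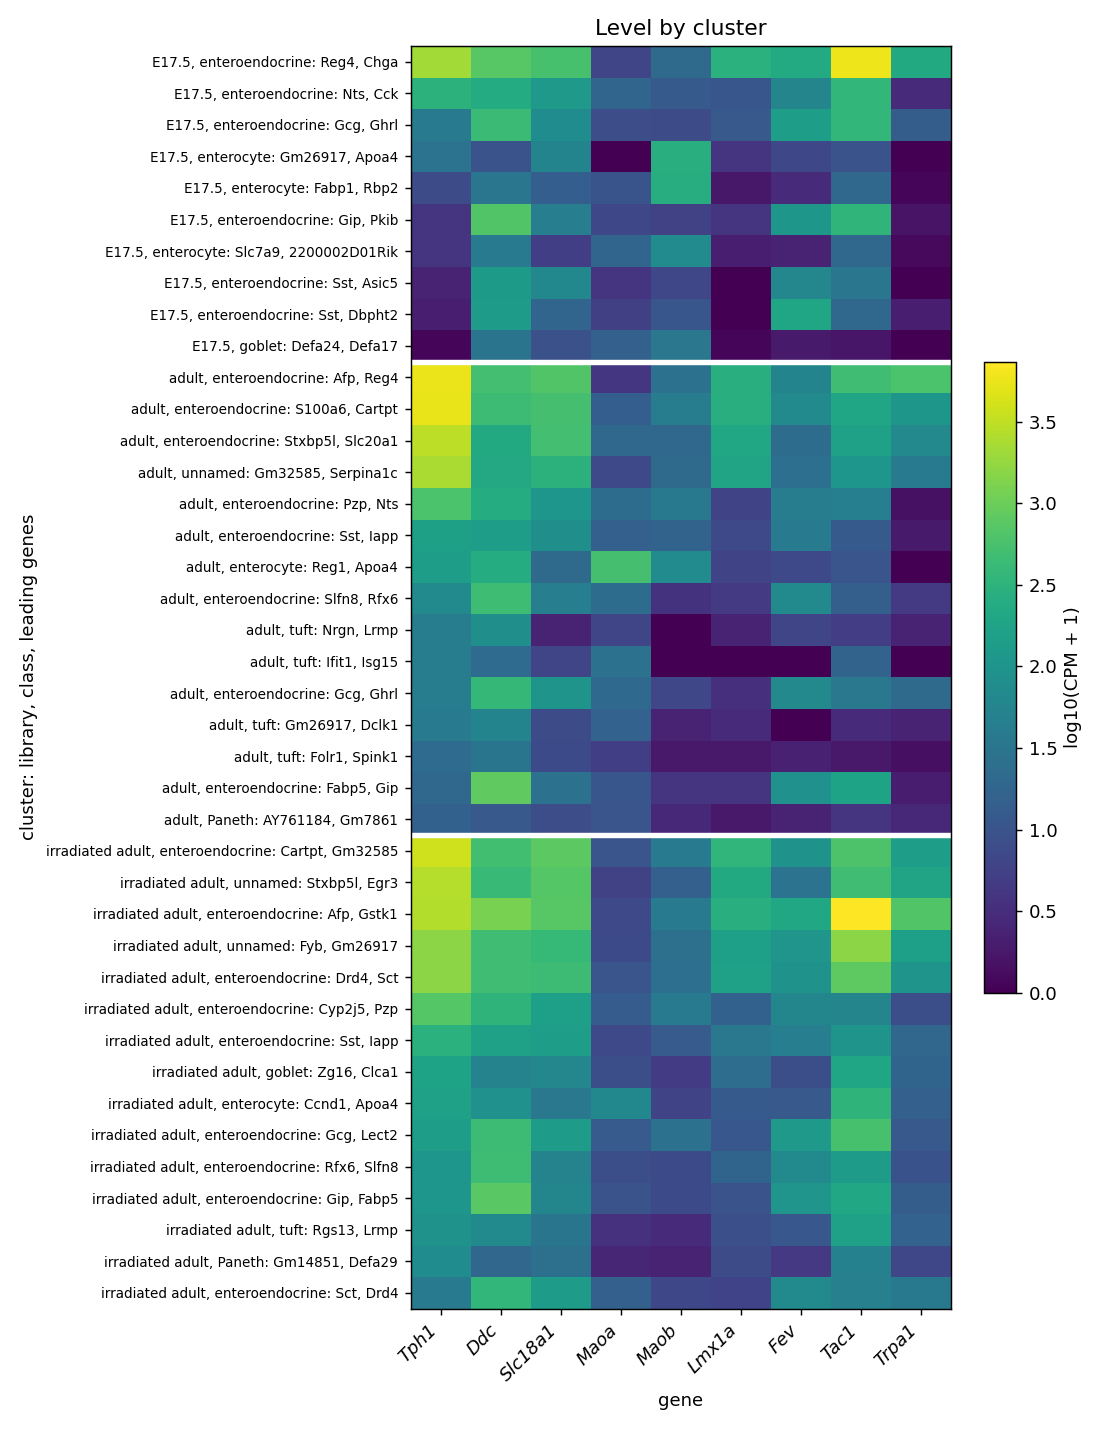
Colour shows log10(CPM + 1) of each gene (columns) in 40 clusters (rows) of the E17.5, adult and irradiated adult libraries (enteroendocrine-, tuft-, enterocyte-, goblet- and Paneth-like, and any other with at least 1000 CPM of Tph1), ordered by Tph1 within a library and labelled by class and leading genes. Bright Tph1, Slc18a1 and Lmx1a coincide at the top of each block, whereas Ddc and Fev are bright across most enteroendocrine rows. Maoa is brightest in the adult enterocyte row and Maob in E17.5 enterocyte rows.

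Whether the members went with Tph1 within one class of cells was tested in enteroendocrine-like cells. UMIs were summed over cells with and without a Tph1 UMI in each of the 3 later libraries (501 and 870 cells at E17.5, 1014 and 1272 for adult, 1240 and 642 for irradiated adult cells) and fitted in edgeR's quasi-likelihood test with the library as a block. The 3 libraries, which differ in age and treatment, served as replicates. Lmx1a, Trpa1, Tac1, Slc18a1 and Maob were higher in Tph1-positive cells, 5 of the 8 members tested, and none was lower. Over all 12253 genes tested 11.1% were called higher and 10.4% lower (1360 and 1272 genes, or 1637 and 972 with library totals in place of TMM factors), and the members' median log2 change was 1.80, beside -0.03 over all genes.

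Lmx1a separated the cells most. It was at 153, 150 and 167 CPM in Tph1-positive and at 4.78, 1.75 and 5.83 CPM in Tph1-negative cells of the E17.5, adult and irradiated adult libraries, so the 2 kinds of sum did not overlap. The log2 change was 5.19 (SE 0.24, edgeR adjusted p = 5.07e-05), a 36.5-fold difference, with the higher value in Tph1-positive cells in 3 of 3 libraries. Trpa1 was at 110, 105 and 132 CPM with Tph1 and at 3.88, 4.45 and 13.4 CPM without, again without overlap. Its log2 change was 4.00 (SE 0.28, edgeR adjusted p = 0.00021).

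Slc18a1 was more even over the libraries. It was at 341, 358 and 440 CPM with Tph1 and at 65.3, 58.0 and 91.7 CPM without. The log2 change was 2.35 (SE 0.11, edgeR adjusted p = 5.32e-05), or 5.11-fold.

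Tac1 had the widest spread between libraries. It was at 3302, 184 and 1138 CPM with Tph1 and at 168, 34.6 and 147 CPM without, so the Tph1-negative value at E17.5 lay close to the Tph1-positive value in the adult. The within-library ratios were 19.6 (18.5 to 20.9), 5.32 (4.604 to 6.17) and 7.74 (7.24 to 8.29). The log2 change was 3.17 (SE 0.35, edgeR adjusted p = 0.0012). Without the library block the adjusted p was 0.23.

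The oxidases parted here too. Maob was at 14.0, 28.3 and 31.5 CPM with Tph1 and at 8.81, 8.90 and 11.5 CPM without. Its log2 change was 1.24 (SE 0.19, edgeR adjusted p = 0.0041), and without the library block the adjusted p was 0.17. Maoa was at 12.1, 14.2 and 9.09 CPM with Tph1 and at 8.36, 19.1 and 12.2 CPM without, with overlapping sums. Its log2 change was -0.25 (SE 0.23, edgeR adjusted p = 0.49), and without the E17.5 library -0.50 (edgeR adjusted p = 0.033).

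Ddc and Fev did not separate the cells. Ddc was at 491, 384 and 514 CPM with Tph1 and at 364, 491 and 444 CPM without. Its log2 change was 0.03 (SE 0.16, edgeR adjusted p = 0.93). Fev was at 147, 57.1 and 98.4 CPM with Tph1 and at 108, 65.2 and 80.2 CPM without, with a log2 change of 0.12 (SE 0.14, edgeR adjusted p = 0.58). In the adult the ratio of the level with Tph1 over that without was below 1 for both, at 0.782 for Ddc (0.742 to 0.824) and 0.876 for Fev (0.761 to 1.01, which includes 1).

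Shares of cells at equal depth went the same way as the CPM in each library for the other members except Maoa. Cells under 2000 UMIs were left out, and the split was made anew by the Tph1 UMIs left after thinning. The groups with and without Tph1 were thus 385 and 951, 736 and 1048, and 928 and 856 cells, not those of the test. After thinning to 2000 UMIs a Lmx1a UMI was found in 38.2%, 27.2% and 37.7% of Tph1-positive and in 2.00%, 1.05% and 2.22% of Tph1-negative enteroendocrine-like cells. For Slc18a1 the shares were 58.2%, 54.2% and 64.2% against 14.2%, 11.2% and 15.5%. For Ddc they were 61.6%, 45.4% and 62.0% against 43.4%, 52.9% and 52.8%. The adult was again the library in which fewer Tph1-positive than Tph1-negative cells had a Ddc UMI. Maoa was the exception, with 1.04%, 3.53% and 2.05% of Tph1-positive against 2.10%, 3.15% and 1.99% of Tph1-negative cells, in each library the opposite way to its CPM and with overlapping intervals.

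**Figure D3:**
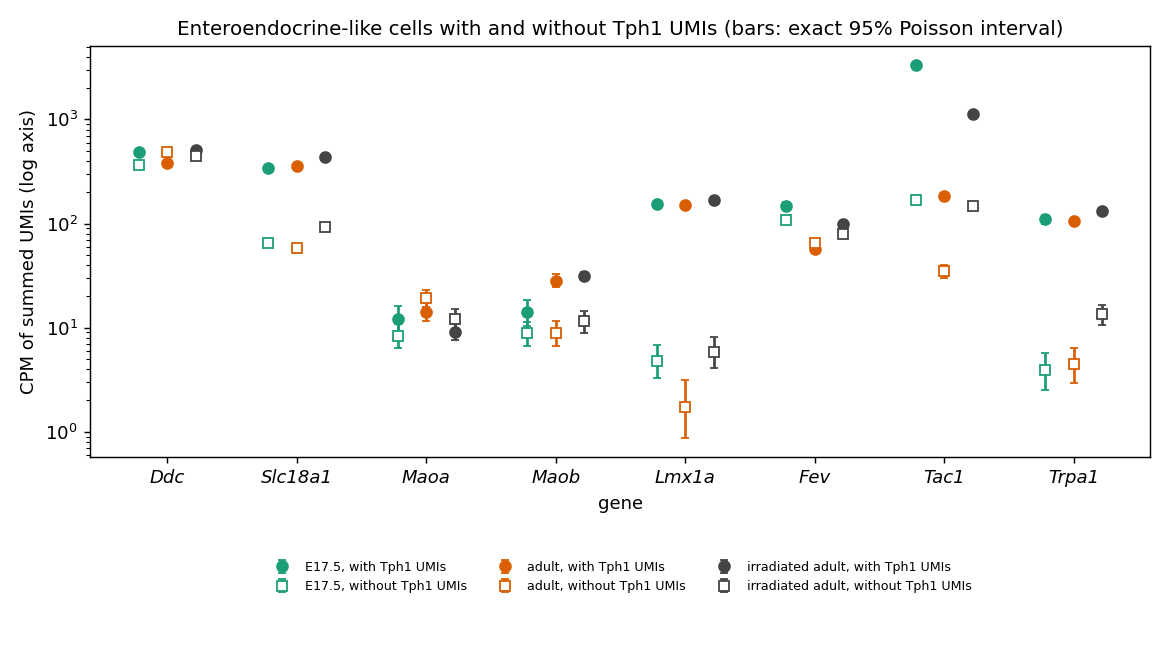
CPM (log axis) of the 8 other genes in enteroendocrine-like cells with Tph1 UMIs (filled circles) and without (open squares), by library, with exact 95% Poisson intervals as bars. Filled and open symbols are far apart for Lmx1a, Trpa1, Slc18a1 and Tac1, and lie close together for Ddc, Fev and Maoa, whose adult symbols stand in the opposite order to those of E17.5.

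The same split over all kept cells, whatever their class, passed the threshold for 2 of 8 members, where 1.99% of 13682 genes were called higher and 0.512% lower. Lmx1a (log2 change 5.96, SE 0.63, edgeR adjusted p = 0.025) and Slc18a1 (3.29, SE 0.42, edgeR adjusted p = 0.036) were higher. Trpa1 was at 5.03 (edgeR adjusted p = 0.054), Tac1 at 4.37 (0.073), Fev at 1.29 (0.21), Ddc at 0.88 (0.26), Maob at 0.49 (0.57) and Maoa at -0.33 (0.28) on the log2 scale. These calls depended on the libraries: without the adult library 3 genes in all were called and no member, and without the E17.5 library 6 members were called.

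Markers of other cells that can hold serotonin genes were compared in the same split. Of 8 mast cell markers 7 were at 0 UMIs in Tph1-positive cells of the E17.5 and adult libraries and Cpa3, Mcpt1 and Ms4a2 in the irradiated adult. The summed level was 17.6, 14.3 and 12.9 CPM with Tph1 and 9.16, 36.3 and 19.5 CPM without. The sums with Tph1 at E17.5 and in the adult were Kit alone. The 10 enteric neuron markers summed to 116, 68.2 and 60.5 CPM with Tph1 and 41.3, 33.8 and 48.3 CPM without, with Vip at 0 in all 6 sums. The 12 tuft markers summed to 11.7, 973 and 847 CPM with Tph1 and to 6.48, 2869 and 1647 CPM without. The 8 islet markers, of which Gcg and Iapp are also in the list of hormones, summed to 1811, 895 and 2658 CPM with Tph1 and to 8761, 2560 and 8365 CPM without. The insulin genes Ins1 and Ins2 were at 0 in the adult and irradiated libraries and were detected at E17.5. The part of these cells in the split of all kept cells was not tested.

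Other genes of the pathway were read in enteroendocrine-like cells from lists grouped by function. The lists were chosen with earlier results of these data known, so their counts describe these genes and test no list. The counts below stand beside 11.1% higher and 10.4% lower over all genes tested there, with a median log2 change of -0.03. Of the 8 genes that make or recycle tetrahydrobiopterin, the cofactor of Tph1, 1 was higher in Tph1-positive cells, none lower and 7 did not pass (median log2 change -0.04). As a list these genes were thus near the share over all genes. Qdpr, which recycles the cofactor, was at 367, 252 and 260 CPM with Tph1 and 241, 127 and 153 CPM without (log2 change 0.71, edgeR adjusted p = 0.0029). Gch1, its first enzyme of synthesis, had a log2 change of 0.00 (adjusted p = 0.98).

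Of 8 transporters tested for tryptophan and amines, 2 were higher and 4 lower (median -0.51). Slc18a2, the vesicular transporter VMAT2 better known from neurons, was at 44.0, 6.76 and 31.8 CPM with Tph1 and 3.14, 3.34 and 3.73 CPM without (log2 change 2.78, edgeR adjusted p = 0.0044). Slc38a11, an amino acid transporter of the sodium-coupled family, had a log2 change of 5.45 (adjusted p = 1.45e-05). Slc6a4, the serotonin re-uptake transporter, was at 1.35, 4.75 and 6.69 CPM with Tph1 and 3.73, 14.9 and 12.3 CPM without (log2 change -1.35, edgeR adjusted p = 0.0067). Slc29a4, a low-affinity amine transporter, fell by 1.25 on the log2 scale (edgeR adjusted p = 0.014), and the amino acid transporters Slc6a19 and Slc16a10 fell by 1.00 and 0.75.

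Of 7 other enzymes of tryptophan and amine handling, 1 was higher and 3 lower (median -0.06). The count of those higher was near the share over all genes. Aldh1a1, an aldehyde dehydrogenase, was at 40.8, 18.99 and 19.9 CPM with Tph1 and 6.87, 3.81 and 1.30 CPM without (log2 change 2.72, edgeR adjusted p = 0.00057). The lower genes included Tdo2 (-1.81) and Aldh9a1 (-0.59).

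Granule cargo and peptides reported from enterochromaffin cells were mostly higher, 8 of 12, with 2 lower and a median of 1.06. Reg4 was at 4039, 7529 and 10714 CPM with Tph1 and 32.7, 109 and 259 CPM without (log2 change 6.04, edgeR adjusted p = 9.15e-05). Cartpt (6.24), Chga (3.47), Ucn3 (2.10), Vgf (1.66), Chgb (1.27), Pcsk1 (0.85) and Pcsk1n (0.84) were higher on the log2 scale, and the granule proteins Scg2 (-0.51) and Cpe (-0.76) were lower. Among 10 hormones tested none was higher and 4 were lower, Gcg (-3.18), Gip (-2.81), Iapp (-1.98) and Ghrl (-1.71). Cck (-0.09, edgeR adjusted p = 0.75) and Nts (0.16, adjusted p = 0.55) did not pass.

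Of 15 endocrine transcription factors tested, 3 were higher and 5 lower. Glis3 (2.13), Pax4 (1.39) and Neurod1 (0.78) were higher on the log2 scale. The lower genes included Isl1 (-2.30), Rfx6 (-1.54), Pax6 (-1.50) and St18 (-0.96). Of 10 sensory receptors and channels tested, 5 were higher and 2 lower. The channels Trpc4 (3.02), Trpm2 (2.82) and Scn3a (2.25) and the short-chain fatty acid receptor Ffar2 (1.34) were higher, as was Cacna1h (0.44), and the long-chain fatty acid receptor Ffar4 (-1.36) and the adrenoceptor Adra2a (-1.51) were lower. Piezo2 did not pass the filter on low counts. Of 11 serotonin and tachykinin receptors only Htr1d was tested (-0.29, edgeR adjusted p = 0.66). The reporter genes eGFP (-0.21, adjusted p = 0.62) and Bmi1 (0.06, adjusted p = 0.77) did not separate the cells.

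By the rule on largest change, the 10 genes outside the set with the highest log2 change in Tph1-positive enteroendocrine-like cells were Shisa9 (6.81), Cartpt, Chst1 (6.18), Reg4, Aqp9 (6.02), Afp (5.60), Tpbg (5.57), Ccdc170 (5.46), Cwh43 (5.46) and Slc38a11, and Lmx1a ranked 17 among all 12253 genes. The 5 with the lowest were AU015791 (-3.26), Gcg, Ooep (-3.12), Jam3 (-3.07) and Ppp2r2b (-2.91).

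Levels were also read against the number of Tph1 UMIs in a cell, over all kept cells and as a description. In cells with 0, 1, 2 to 4, 5 to 19 and 20 or more Tph1 UMIs, Lmx1a was at 0.71, 16.1, 84.3, 142 and 196 CPM at E17.5. The adult levels were 0.82, 3.60, 23.9, 106 and 209 CPM and those after irradiation 5.03, 4.31, 16.1, 124 and 211 CPM. At 1 Tph1 UMI E17.5 thus stood above the adult and the irradiated adult, whose intervals overlapped (2.06 to 5.84 and 2.99 to 6.03 CPM). The libraries came together at 20 or more. In the irradiated adult 504 cells had exactly 1 Tph1 UMI and levels of Lmx1a, Slc18a1 and Trpa1 (4.31, 42.6 and 7.10 CPM) at or below those of cells with none (5.03, 54.1 and 9.30 CPM). Tac1 stayed apart at every step, with 4739, 271 and 1472 CPM at 20 or more Tph1 UMIs in the E17.5, adult and irradiated adult libraries. Maoa in the adult was at 78.6, 82.9, 67.1, 39.5 and 27.5 CPM over the same steps, so it was lower in the cells with most Tph1. The enteroendocrine-like share of these adult cells rose from 51.3% at 0 to 90.6% at 20 or more Tph1 UMIs. The part of this makeup in the Maoa levels was not tested.

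**Figure D4:**
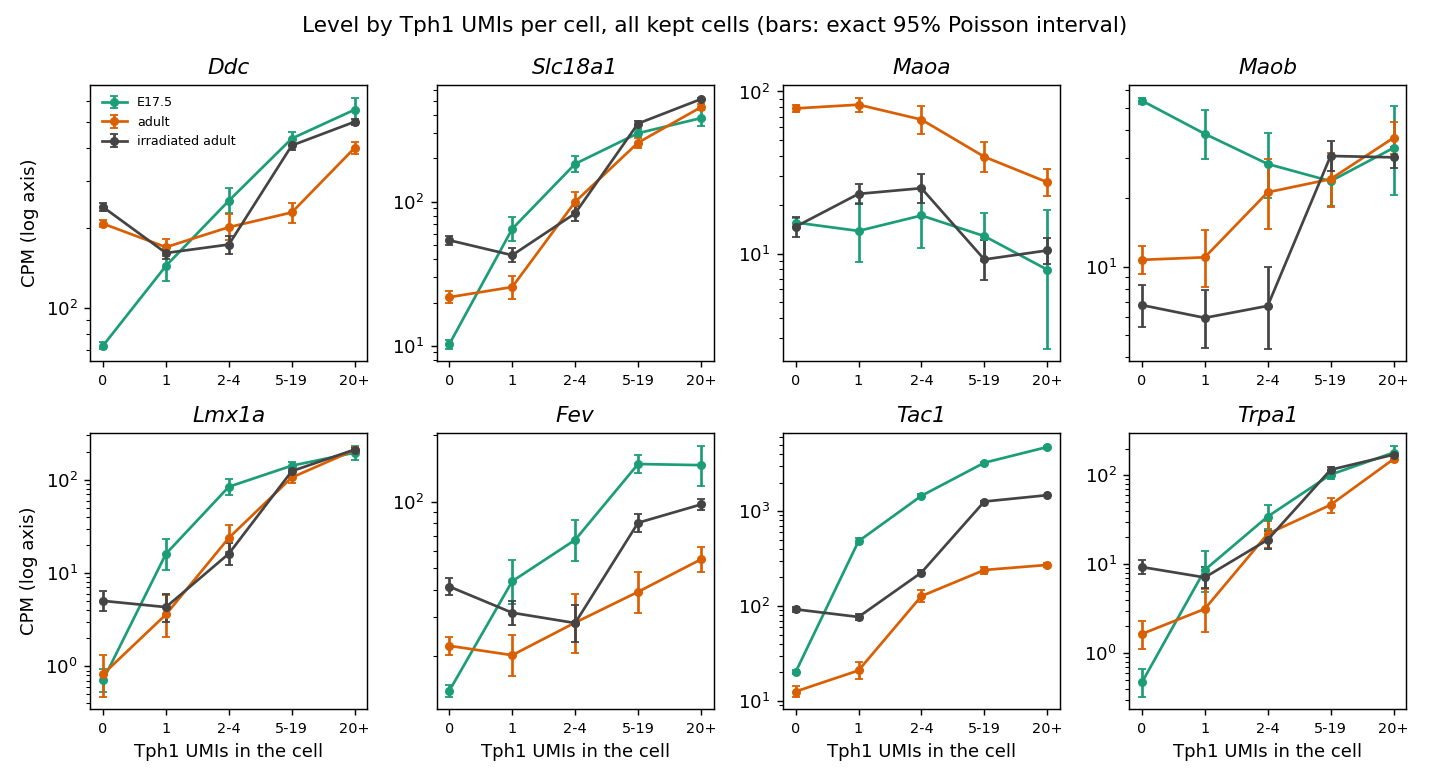
CPM (log axis) of the 8 other genes in kept cells grouped by their Tph1 UMIs (x axis), for 3 libraries, with exact 95% Poisson intervals as bars. Lmx1a and Trpa1 converge at 20 or more Tph1 UMIs, whereas the 3 Tac1 lines stay apart from 271 to 4739 CPM. Slc18a1 is there at 381, 454 and 517 CPM in the E17.5, adult and irradiated adult libraries, with intervals that do not overlap.

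Among Tph1-positive cells the libraries differed less in most members than they did over all cells, with Tac1 and Fev as exceptions for the adult against E17.5. Within Tph1-positive enteroendocrine-like cells the adult over E17.5 ratio was 0.983 for Lmx1a (0.886 to 1.09), 1.05 for Slc18a1 (0.98 to 1.12) and 0.961 for Trpa1 (0.850 to 1.09). For Tac1 E17.5 was 17.9-fold above the adult (16.9 to 18.99) and for Fev 2.57-fold (2.25 to 2.93). The irradiated adult over adult ratio was 6.18 for Tac1 (5.83 to 6.54), 1.72 for Fev (1.54 to 1.93), 1.34 for Ddc (1.28 to 1.40), 1.23 for Slc18a1 (1.17 to 1.29), 1.25 for Trpa1 (1.15 to 1.37) and 1.11 for Lmx1a (1.03 to 1.20). For Tph1 itself, which chose these cells, the irradiated adult over adult ratio was 0.622 (0.611 to 0.633). Of the Tph1 UMIs of each library the Reg4 and Chga cluster held 70.2% at E17.5 and the Cartpt clusters 58.4% and 52.0% in the adult and irradiated libraries. The Tac1 ratio stands beside the tuft-like level of 161 CPM in the irradiated adult, against 1138 CPM in its Tph1-positive and 147 CPM in its Tph1-negative enteroendocrine-like cells.

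Likeness of pattern was described by Pearson's r of log2(CPM + 10) across the 71 clusters of the 4 libraries, which share libraries and depth. Among the members Slc18a1 (r = 0.92), Lmx1a (0.91), Trpa1 (0.85) and Tac1 (0.79) were most like Tph1, followed by Ddc (0.69), Fev (0.59), Maob (0.10) and Maoa (-0.22). Ddc was most like Fev (0.85) and Lmx1a most like Trpa1 (0.93). Outside the set the 8 genes most like Tph1 were Slc9a2 (0.93), Kcnc1 (0.93), Scn3a (0.91), Slc25a35 (0.91), Syn2 (0.91), Gsdma (0.90), Scamp5 (0.90) and Reg4 (0.90).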

How the data were processed

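The authors deposited, per sample, a matrix of raw UMI counts per gene and barcode, in whole numbers without normalization. Cell Ranger 3.1.0 and the build mm10 are named in the submitters' processing notes. How barcodes were called is not given in the sources used here. From these counts, CPM, shares and ratios were computed in python 3.11.15. Shares have Clopper-Pearson and ratios exact conditional binomial 95% intervals, which cover counting error only. The members and gene lists were chosen with earlier results of these data known.

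Cells were clustered within each library (2000 variable genes without the 9 members, 30 principal components, 20 neighbours, Leiden resolution 1). Names needed at least 3 detected markers and a mean scaled level of 0.5, and this naming rule was set after the clusters had been seen. Doublets were kept, since Scrublet's automatic threshold marked at most 0.174% of kept cells. An alternative removed the highest scores at 0.8% per 1000 barcodes.

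Genes were tested with edgeR 4.0.16 (TMM factors, its default filter, library block, Benjamini-Hochberg adjusted p under 0.05) in R 4.3.3. SEs were derived from the F statistic. On simulated counts for the enteroendocrine-like comparison (12315 genes), 45% of genes changed 2-fold and 100% of genes changed 4-fold were called, with 9 false calls. For all kept cells (13630 genes) the shares were 41% and 96%, with 6 false calls. These counts were drawn at a single assumed dispersion of 0.05, and only genes with higher mean counts were changed. In the real fit over all kept cells Trpa1 had a log2 change of 5.03 (SE 0.82) and did not pass. The simulated shares therefore do not give the power of the real fits. E12.5, with 2 Tph1-positive cells, was left out of these fits. Nothing says that libraries come from separate animals or pools. With the library as a block, the p-values measure how evenly the difference between cells with and without Tph1 recurred over these 3 libraries. They do not measure the spread of levels between libraries. Named genes are the 9 members, the fixed lists (of which some genes counted in the list totals are not reported here by name), the 10 highest and 5 lowest changes outside the set (called, same sign in each library, at least 100 UMIs in the higher class) and the 8 genes most like Tph1 (at least 200 UMIs). Mitochondrial, ribosomal and predicted genes were left out of the last 2 choices. Alternatives were other cell filters, doublet removal, mean cell CPM, TMM factors, thinning depths, Tph1 thresholds, clusterings, DESeq2 1.42.0 and leaving out each library. Promoter windows came from RefSeq.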

Additional observations from a re-analysis of the deposited data

Results flagged for a closer look

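The contrast of Ddc between cells with and without Tph1 went opposite ways in different libraries, with counting intervals that left out 1 in each. In enteroendocrine-like cells the ratio of its level in Tph1-positive over Tph1-negative cells was 1.35, 0.782 and 1.16 in the E17.5, adult and irradiated libraries. The counting intervals were 1.27 to 1.44, 0.742 to 0.824 and 1.11 to 1.21, so the adult lay on the other side of 1 from the other two. Fev (1.35, 0.876 and 1.23) and Maoa (1.45, 0.744 and 0.748) also lay on both sides of 1, each with at least 1 interval that included it. The difference between libraries was not tested, since each has no replicate. Beside it, the adult cluster led by Gip had 844 CPM of Ddc and 18.4 CPM of Tph1, and the part of such cells in the ratio was not tested.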

How the results depend on the processing

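Within enteroendocrine-like cells the 5 members called higher stayed so in 11 of 12 alternatives, and 3 did without the library block. That fit, which sets aside which sums share a library, called 77 genes higher and 15 lower. Fewer genes were lower with DESeq2 (739) and after thinning (772). Leaving out 1 library gave between 663 and 2008 genes higher and between 493 and 1875 lower. Without the E17.5 library the log2 change of Ddc was -0.15 and of Fev -0.011, and without the adult library they were 0.25 and 0.30. Over all kept cells calls moved with most choices, and the cause was not tested. Without the library block edgeR called 0 genes higher, 0 lower and 0 members, where 652 and 157 genes had an unadjusted p under 0.05. DESeq2 called 791 higher, 428 lower and 5 members. Library totals alone gave 480 genes higher, no filter on low counts 790 and 447 with 4 members, at least 2 Tph1 UMIs 709 and 649 with 4 members, thinning 676 and 594 with 4 members, and removal of doublets 168 and 20 with 1 member. Leaving out 1 library gave between 3 and 1065 higher, between 0 and 729 lower, and between 0 and 6 members. The low end was without the adult library, where edgeR left 638 genes lower at an unadjusted p under 0.05. The log2 change of Maob was -0.047 without the block, and between -0.0041 (without the irradiated library) and 1.24 (without E17.5) when 1 library was left out. The Tph1 level at E17.5 was 174 CPM as a mean of each cell's CPM. For the adult it was 736 CPM with doublets removed, 673 over every barcode, 807 as a mean of cells and 1107 under the stricter filter. For the irradiated adult these were 874, 771, 1147 and 926 CPM, and 936 CPM with TMM factors. Shares of cells with Tph1, thinned to 1000 or 4000 UMIs and unthinned, were 7.36%, 11.2% and 13.2% at E17.5, 22.2%, 35.1% and 34.6% for the adult, and 39.9%, 57.0% and 61.0% after irradiation. The log2 ratio of Tph1 between the adult and E17.5 was 2.21 with mean cell CPM and 3.90 under the stricter filter. That of the irradiated over the adult library was 0.29 with TMM factors, 0.51 with mean cell CPM and -0.26 under the stricter filter.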
